A study of Mus musculus with 4 samples.

Results

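The miR-34 family comprises the mature products of the hairpins Mir34a, Mir34b and Mir34c. Its 6 members here are both arms of each hairpin, mmu-miR-34a-5p, mmu-miR-34a-3p, mmu-miR-34b-5p, mmu-miR-34b-3p, mmu-miR-34c-5p and mmu-miR-34c-3p, chosen by name from the 1907 mature mouse miRNAs listed. The study profiled small RNAs of E14Tg2A, a mouse embryonic stem (ES) cell line, before and after its conversion into epiblast-like aggregates (ELA), a model of the passage from naive to primed pluripotency. ES cells were kept at day 0 in serum (10% fetal calf serum with 1000 U/mL LIF, leukemia inhibitory factor) or in 2iL, a serum-free N2/B27 medium with 1000 U/mL LIF, 1 μM of the MEK inhibitor PD0325901 and 3 μM of the GSK3 inhibitor CHIR99021. ELA were floating aggregates grown from either kind of ES cell for 2 days in a chemically defined minimal medium with N2/B27, to which the recipe adds neither LIF nor the inhibitors, so that "ELA serum" and "ELA 2iL" name the medium of the ES cells of origin. Each of the 4 groups was 1 library made from the pooled RNA of 3 experiments on 1 cell line, with no p53 mutant and no p53-activating treatment among them, and no value below has a replicate error. Where 4 values stand in a row, ES cells in serum come first and ES cells in 2iL second, followed by ELA from serum and ELA from 2iL.

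Mature miRNAs guide Argonaute proteins to complementary sites in mRNAs, and the bases from position 2 to 8, the seed, carry most of the recognition. The miR-34 genes are direct transcriptional targets of p53, and their 5p arms repress mRNAs for cell cycle and survival proteins. miR-34a is known as a brake on reprogramming to pluripotency that acts downstream of p53. Mir34b and Mir34c are processed from a shared primary transcript, whereas Mir34a has a transcript of its own.

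The mature sequences show which members can be read as one group of regulators, and are printed 5′ to 3′ with the seed in capitals. RefSeq (mouse assembly GRCm38.p6) held 5 of the 6 members, and mmu-miR-34c-5p was the missing entry. The 5p arms that shared the seed GGCAGUG were the following, with the products of the Mir449a and Mir449c hairpins added because they carry the same seed.
mmu-miR-34a-5p: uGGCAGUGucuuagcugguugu
mmu-miR-34b-5p: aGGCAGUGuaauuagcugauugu
mmu-miR-449a-5p: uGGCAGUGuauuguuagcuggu
mmu-miR-449c-5p: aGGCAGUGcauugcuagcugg
Among the 1623 listed miRNAs with a mature sequence in RefSeq, these 4 were all that had this seed. The 3p arms, which come from the opposite side of the hairpin, carried other seeds.
mmu-miR-34a-3p: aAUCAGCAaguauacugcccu
mmu-miR-34b-3p: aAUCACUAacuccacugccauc
mmu-miR-34c-3p: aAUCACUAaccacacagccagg
The seed AUCACUA was shared by mmu-miR-34b-3p and mmu-miR-34c-3p, which were identical through base 10 and matched at 17 of 22 positions without gaps. The seed AUCAGCA was carried by mmu-miR-34a-3p alone.

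The members come from separate places in the genome. In mm9 (NCBI37), Mir34a lies at chr4:149442563-149442664 on the plus strand, overlaps no other annotated gene and has Gpr157 as its nearest protein-coding gene, at 18809 bp. Mir34c (chr9:50911139-50911215) and Mir34b (chr9:50911667-50911750) lie on the minus strand of chromosome 9 with 451 bp between them. Neither overlaps another annotated gene. Mir449c (chr13:113826191-113826299) and Mir449a (chr13:113827742-113827832) lie 1442 bp apart on the plus strand, both within an intron of Cdc20b, a gene on the same strand. The RefSeq hairpins of these 5 genes were identical to the mm9 sequence.

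The deposited values were RPM, in which the miRNA reads of each library sum to 1000000, and whole reads were recovered from them. The libraries held 587363 reads (ELA 2iL) to 8056984 reads (ES serum), so that 3 reads, the smallest level taken as detected, corresponded to 0.372, 1.08, 0.696 and 5.11 RPM. Intervals below are 95% counting intervals (Wilson for levels and shares, exact for ratios) and cover counting error only. The summed level of 4 miRNAs of the miR-302 cluster, markers of primed cells, was 5222, 67.6, 32895 and 5549 RPM. It was higher in ELA within each medium, although ELA 2iL lay close to ES serum. The sum of 3 miRNAs of the miR-290 cluster, markers of naive cells, was 61648, 142214, 41028 and 109569 RPM, lower in ELA within each medium and higher in both 2iL libraries. The description field of the labels exchanges ES 2iL and ELA serum relative to the titles, source names and column names that were used for grouping. If the description were right, the stage and medium contrasts below would trade places. The miR-302 sum would then be lower in ELA than in ES cells in both media, and the miR-290 sum would be higher.

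All 6 members were detected in all 4 libraries, and mmu-miR-34c-5p and mmu-miR-34a-5p supplied most of the family's reads. In ES cells mmu-miR-34c-5p was at 474 RPM with serum (3815 reads) and 143 RPM with 2iL (396 reads), and in ELA at 777 RPM from serum (3347 reads) and 783 RPM from 2iL (460 reads). Both ELA libraries were therefore above both ES libraries, ES 2iL was the lowest, and the 2 ELA values had overlapping intervals (751 to 803 and 715 to 858 RPM). In ES cells mmu-miR-34a-5p was at 327 RPM with serum (2633 reads) and 598 RPM with 2iL (1655 reads), and in ELA at 272 RPM from serum (1171 reads) and 555 RPM from 2iL (326 reads). For this arm both 2iL libraries were above both serum libraries, and the intervals of the 2 2iL values overlapped (570 to 628 and 498 to 619 RPM). By abundance, mmu-miR-34c-5p ranked 103rd, 197th, 83rd and 88th of all miRNAs, and mmu-miR-34a-5p ranked 130th, 106th, 134th and 106th.

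The remaining members were at 1.08 to 61.3 RPM. mmu-miR-34b-5p was at 10.8 RPM (87 reads), 10.1 RPM (28 reads), 23.4 RPM (101 reads) and 61.3 RPM (36 reads). The intervals of its 2 ES values overlapped, and its 2 ELA values were higher. mmu-miR-34b-3p was at 10.3 RPM (83 reads), 1.81 RPM (5 reads), 15.1 RPM (65 reads) and 17.03 RPM (10 reads). mmu-miR-34c-3p was at 4.72 RPM (38 reads), 1.08 RPM (3 reads), 7.66 RPM (33 reads) and 11.9 RPM (7 reads). Both 3p arms of chromosome 9 were thus lowest in ES 2iL, where mmu-miR-34c-3p stood at the limit of 3 reads. mmu-miR-34a-3p was at 16.6 RPM (134 reads), 24.2 RPM (67 reads), 18.1 RPM (78 reads) and 25.5 RPM (15 reads), and was higher in both 2iL libraries under RPM. In bulk RNA, fewer cells that make a miRNA and less of it per cell cannot be told apart.

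**Figure D1:**
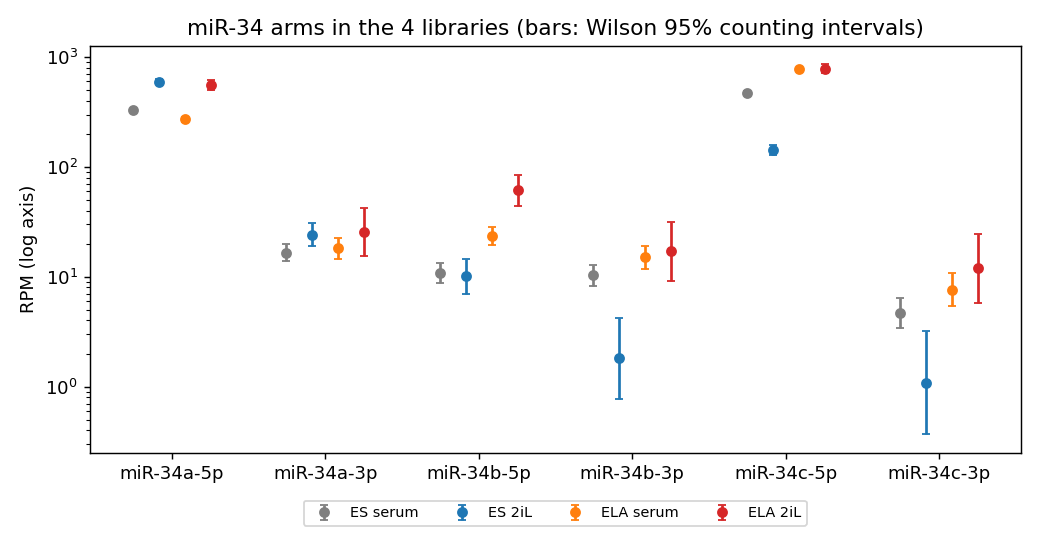
Levels of the 6 miR-34 arms in RPM on a log axis, 1 point per library, with Wilson 95% counting intervals. The miR-34a arms were higher in both 2iL libraries (under TMM or DESeq2 size factors mmu-miR-34a-5p only), whereas the 4 arms from chromosome 9 were higher in both ELA libraries and, for 3 of them, clearly lowest in ES 2iL.

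The stage comparison asked whether the members differed between ES cells and ELA. All 4 arms of miR-34b and miR-34c were higher in both ELA libraries than in both ES libraries, a pattern met by 17.4% of the 599 miRNAs tested, and under RPM neither arm of miR-34a followed it. With TMM or DESeq2 size factors mmu-miR-34a-3p followed it too, with a stage difference of 0.27 or 0.30, as did 18.7% or 20.2% of the miRNAs tested. Averaged over both media on the log2(RPM + 1) scale, the ELA minus ES difference was 1.77 ± 0.55 (SE) for mmu-miR-34b-5p, 1.62 ± 0.64 for mmu-miR-34c-3p, 1.60 ± 0.66 for mmu-miR-34b-3p and 1.58 ± 0.59 for mmu-miR-34c-5p. These 4 arms ranked 35th, 41st, 43rd and 44th from the highest of the 599. The difference was −0.19 ± 0.44 for mmu-miR-34a-5p and 0.095 ± 0.44 for mmu-miR-34a-3p. Of the 6 members, 4 were higher in ELA by at least 1, as were 11.9% of all miRNAs tested, and 0 were lower by at least 1, against 21.7% of those tested. With a pseudocount of 5 RPM the count was 3, against 9.02% of all miRNAs tested, as the difference was 0.93 for mmu-miR-34c-3p and 1.04 for mmu-miR-34b-3p. The members' median difference was 1.59, beside −0.22 for the 599. The 4 arms of miR-34b and miR-34c come from neighbouring hairpins with a shared primary transcript. These counts and this median are therefore not taken over independent members.

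None of these stage differences passed the limma test at an adjusted p of 0.05. With 1 library per group, the residual of the fit is the gap between the stage differences in the 2 media. limma shrinks it toward a value common to all miRNAs. The SE and p-values therefore reflect that gap and not the variation between experiments. With limma on 4 libraries, which leaves 1 residual degree of freedom, the adjusted p was 0.184 for mmu-miR-34b-5p, 0.226 for mmu-miR-34c-5p, 0.234 for mmu-miR-34c-3p and 0.240 for mmu-miR-34b-3p. It was 0.822 for mmu-miR-34a-5p and 0.919 for mmu-miR-34a-3p. limma called 0 of the 599 (0.0%), while 20.9% of them and 2 of the 6 members had an unadjusted p under 0.05. DESeq2 on the recovered reads called 8.35% of the miRNAs for stage, and among them mmu-miR-34c-5p (adjusted p = 0.0298) and mmu-miR-34b-5p (adjusted p = 0.0429). edgeR's quasi-likelihood test called 6.51% and none of the members, with an adjusted p of 0.0698 for mmu-miR-34c-5p and 0.0748 for mmu-miR-34b-5p.

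Within serum, the ELA to ES ratio of mmu-miR-34c-5p was 1.64-fold, a log2 ratio of 0.71 (0.65 to 0.78). Within 2iL it was 5.47-fold, a log2 ratio of 2.45 (2.26 to 2.65). mmu-miR-34b-5p was 2.17-fold higher in ELA within serum (log2 ratio 1.12, 0.69 to 1.55) and 6.06-fold higher within 2iL (2.60, 1.85 to 3.37). The 3p arms had the same order with wider intervals, since the log2 ratio of mmu-miR-34b-3p was 0.55 (0.06 to 1.04) within serum and 3.24 (1.55 to 5.14) within 2iL, and that of mmu-miR-34c-3p was 0.70 (−0.02 to 1.41) and 3.46 (1.33 to 6.04). A log2(RPM + 1) difference of at least 1 was met by 9.18% of the miRNAs tested within serum and 19.0% within 2iL. mmu-miR-34b-5p was the only member to pass it within serum, and all 4 arms of chromosome 9 passed it within 2iL. By contrast, mmu-miR-34a-5p was slightly lower in ELA within serum (log2 ratio −0.27, −0.37 to −0.17), and within 2iL its interval included 0 (−0.11, −0.28 to 0.06).

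**Figure D2:**
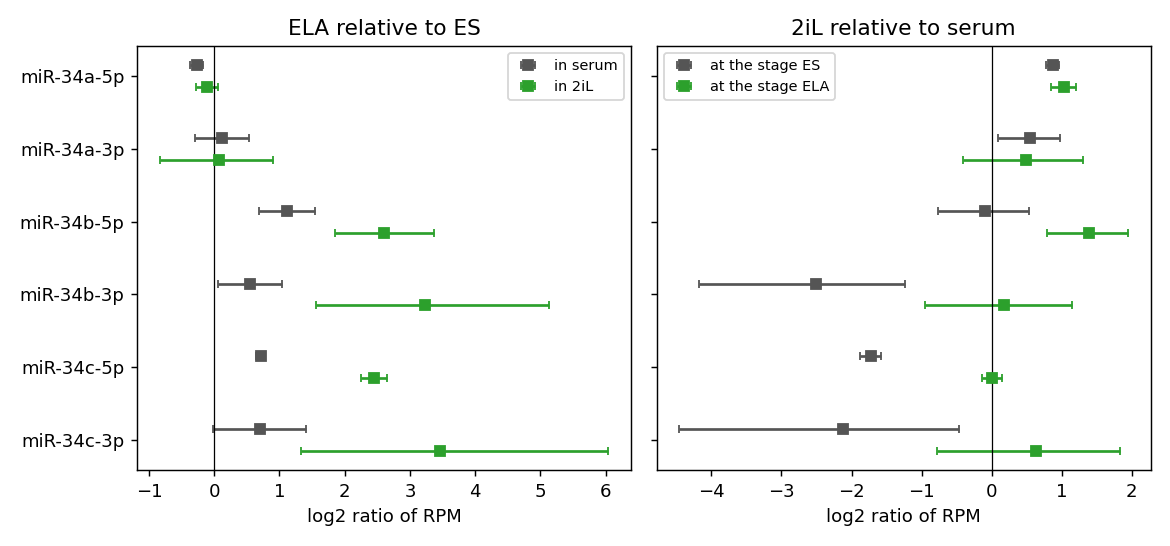
Log2 ratios of RPM between pairs of libraries for the 6 arms, ELA over ES in each medium (left) and 2iL over serum at each stage (right), with exact 95% counting intervals. The arms of miR-34b and miR-34c lie above 0 on the left in both media and further from 0 in 2iL. On the right, 3 of them lie well below 0 at the ES stage and have intervals that include 0 at the ELA stage.

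The medium comparison asked whether the members differed between cells from 2iL and from serum. Both arms of miR-34a were higher in both 2iL libraries than in both serum libraries under RPM, as were 30.7% of the miRNAs tested. With TMM or DESeq2 size factors only mmu-miR-34a-5p kept this order, as did 20.5% or 21.7% of the miRNAs tested. mmu-miR-34a-3p was then lower in ES 2iL than in ELA serum, and its medium difference was 0.095 and 0.13. The 2iL minus serum difference of mmu-miR-34a-5p was 0.95 ± 0.44 on the log2(RPM + 1) scale (limma, adjusted p = 0.226), and that of mmu-miR-34a-3p was 0.50 ± 0.44 (adjusted p = 0.482). By pairs, mmu-miR-34a-5p was 1.83-fold higher in 2iL at the ES stage (log2 ratio 0.87, 0.78 to 0.96) and 2.04-fold higher at the ELA stage (1.03, 0.85 to 1.21). The log2 ratio of mmu-miR-34a-3p was 0.54 (0.10 to 0.98) at the ES stage, and at the ELA stage, with 15 reads in ELA 2iL, its interval included 0 (0.50, −0.41 to 1.31). The median miRNA tested was itself 0.32 higher in 2iL under RPM. Relative to this median the difference of mmu-miR-34a-5p was 0.63, and under the other 3 scalings tried (TMM, DESeq2 size factors, and totals without the 5 most abundant miRNAs) it was 0.60 to 0.63 relative to the median of each. For mmu-miR-34a-3p it was 0.17 relative to the median under RPM and 0.17 to 0.19 under the other scalings.

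For the arms of chromosome 9 the medium difference had unlike values at the 2 stages, a gap that was not tested. In ES cells mmu-miR-34c-5p was 3.31-fold lower in 2iL than in serum (log2 ratio −1.73, −1.88 to −1.58), and in ELA its log2 ratio was 0.01 (−0.13 to 0.15). The near equality in ELA holds under RPM. Scaled by TMM, this arm was at 932 in ELA serum and 738 in ELA 2iL, and by DESeq2 size factors at 948 and 744. mmu-miR-34b-3p was 5.70-fold lower in ES 2iL than in ES serum (log2 ratio −2.51, −4.17 to −1.23), and mmu-miR-34c-3p had a log2 ratio of −2.12 (−4.46 to −0.47). In ELA the intervals of both included 0, with log2 ratios of 0.18 (−0.95 to 1.15) and 0.64 (−0.78 to 1.84). mmu-miR-34b-5p differed from these 3 arms in its values. Its log2 ratio was −0.09 (−0.76 to 0.54) at the ES stage, and in ELA it was 2.62-fold higher in 2iL (1.39, 0.80 to 1.95). Averaged over stages, the 2iL minus serum differences were −0.85 ± 0.59 for mmu-miR-34c-5p, −0.92 ± 0.66 for mmu-miR-34b-3p, −0.44 ± 0.64 for mmu-miR-34c-3p and 0.63 ± 0.55 for mmu-miR-34b-5p, with limma adjusted p-values from 0.381 to 0.670. limma called 0.0% of the miRNAs tested for medium (29.4% had an unadjusted p under 0.05), edgeR 10.7% and DESeq2 13.4%. No member was called for medium by any of these, and under RPM 0 of the 6 were higher or lower in 2iL by at least 1 on average over the stages, against 24.5% and 15.7% of the miRNAs tested. Under each of the other 3 scalings 2 of the 6 were lower by at least 1, mmu-miR-34c-5p (−1.27 to −1.01) and mmu-miR-34b-3p (−1.26 to −1.16), against 19.0 to 22.2% of the miRNAs tested. With edgeR or DESeq2 3 were lower, against 23.5% or 23.2%, as mmu-miR-34c-3p was then at −1.03 or −1.04. With a pseudocount of 0.5 RPM 1 was lower, against 17.2%. ES 2iL was the lowest of the 4 libraries for all 4 arms of chromosome 9 (for mmu-miR-34b-5p by less than the counting error) and for 25.9% of the miRNAs tested.

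**Figure D3:**
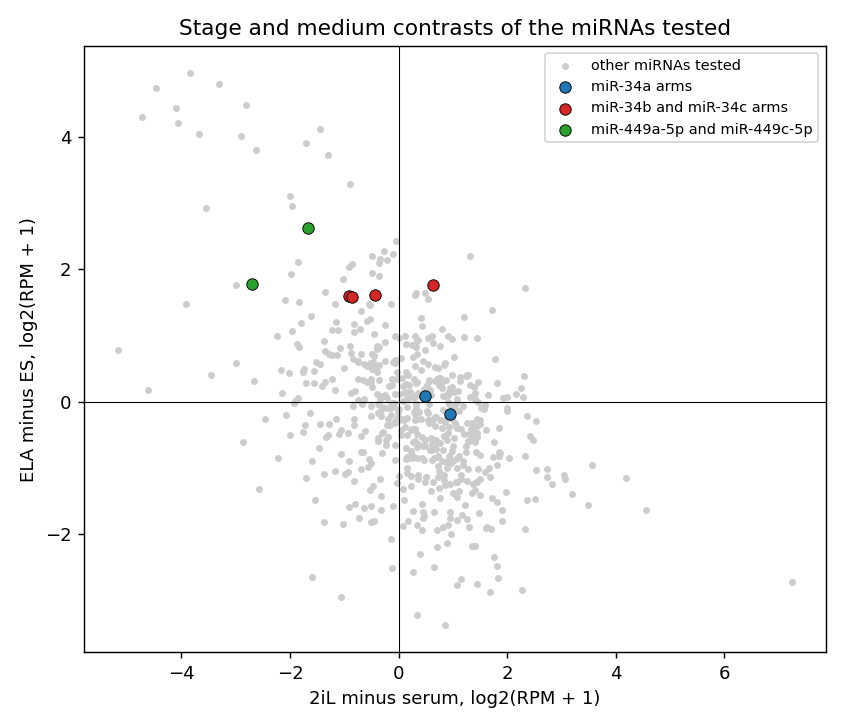
Stage contrast (ELA minus ES) against medium contrast (2iL minus serum) of the 599 miRNAs tested, both on the log2(RPM + 1) scale, 1 point per miRNA. The 4 arms of miR-34b and miR-34c lie together between 1.58 and 1.77 on the stage axis, the miR-34a arms lie near 0 on that axis, and mmu-miR-449a-5p and mmu-miR-449c-5p lie to the upper left.

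The size of the stage difference in 2iL minus that in serum was 1.73 for mmu-miR-34c-5p on the log2(RPM + 1) scale, and 103 of the 599 miRNAs had a gap at least as large in size. It was 2.17 for mmu-miR-34b-3p, 2.03 for mmu-miR-34c-3p and 1.44 for mmu-miR-34b-5p, with 54, 66 and 142 miRNAs at least as large. For mmu-miR-34a-5p it was 0.16 and for mmu-miR-34a-3p −0.042. With 1 library in each group this gap could not be tested. It is also the residual behind the SE and p-values of the additive fit.

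The summed level of the family differed less between libraries than its composition did. The 6 arms together made up 843, 778, 1113 and 1454 RPM. The ELA to ES ratio of this sum was 1.32-fold (1.27 to 1.37) within serum and 1.87-fold (1.72 to 2.02) within 2iL. Both arms of miR-34a summed to 343, 622, 290 and 581 RPM, and the 4 arms of miR-34b and miR-34c to 499, 156, 823 and 873 RPM. At the ES stage the first sum was 1.81-fold higher in 2iL (1.71 to 1.93), and the second was 3.20-fold lower (2.90 to 3.54).

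A share of reads within 1 library does not depend on the scaling between libraries. Of the reads of mmu-miR-34a-5p and mmu-miR-34c-5p, mmu-miR-34c-5p took 59.2% (58.0 to 60.4) and 19.3% (17.7 to 21.1) in ES cells with serum and with 2iL, and 74.1% (72.8 to 75.3) and 58.5% (55.0 to 61.9) in the ELA made from them. The more abundant of the pair was thus mmu-miR-34c-5p in 3 libraries, by 1.45-fold in ES serum, 2.86-fold in ELA serum and 1.41-fold in ELA 2iL. In ES 2iL it was mmu-miR-34a-5p, by 4.18-fold. Within either medium the ELA share was above the ES share with intervals that did not overlap, and at either stage the serum share was above the 2iL share.

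The use of the hairpin arms differed little between libraries for miR-34a and miR-34c and more for miR-34b. The 5p arm supplied 93.8 to 96.1% of the reads of miR-34a and 98.5 to 99.2% of those of miR-34c. For miR-34b it supplied 51.2% of 170 reads (43.7 to 58.6) in ES serum and 84.8% of 33 reads (69.1 to 93.3) in ES 2iL. In ELA the shares were 60.8% of 166 reads (53.3 to 67.9) from serum and 78.3% of 46 reads (64.4 to 87.7) from 2iL. Both 2iL libraries were above both serum libraries. The intervals did not overlap between the 2 ES libraries and did overlap between the 2 ELA libraries. Of the 5p reads of miR-34b and miR-34c together, mmu-miR-34b-5p took 2.23% (1.81 to 2.74) in ES serum and 2.93% (2.42 to 3.55) in ELA serum, and 6.60% (4.61 to 9.38) in ES 2iL and 7.26% (5.29 to 9.88) in ELA 2iL. The 3p reads divided differently, since mmu-miR-34b-3p took 58.8 to 68.6% of the 3p reads of these hairpins in the 4 libraries, and those 4 intervals overlapped.

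**Figure D4:**
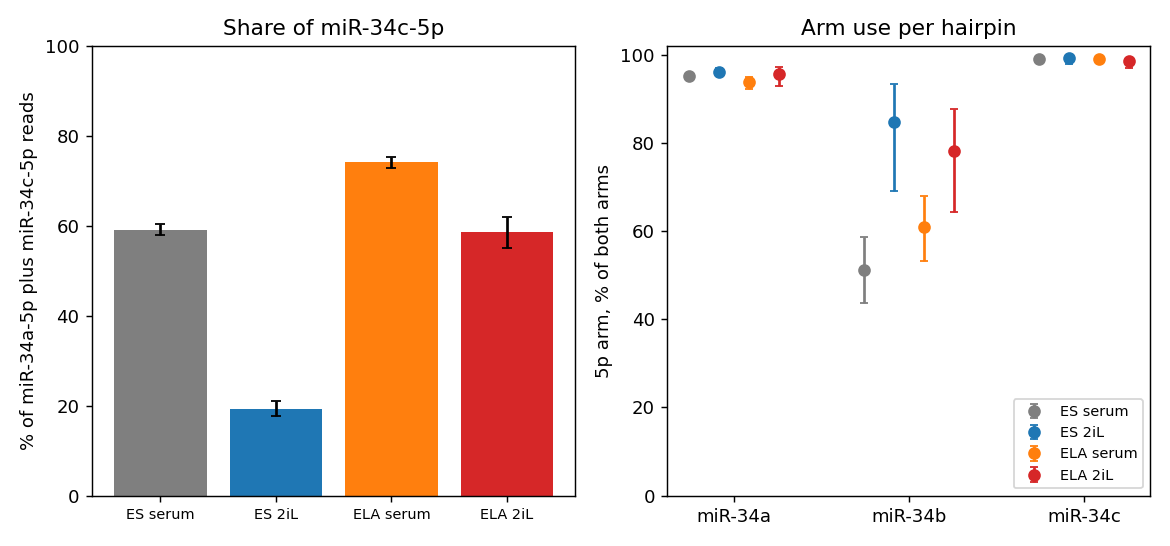
Share of mmu-miR-34c-5p in the reads of mmu-miR-34a-5p plus mmu-miR-34c-5p (left, bars from 0) and 5p share of the reads of each hairpin (right), in percent per library, with Wilson 95% intervals. ES 2iL stands apart on the left at 19.3%, and on the right only miR-34b falls well below 90%, with 51.2% in ES serum.

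The miR-449 products that share the 5p seed also had their lowest levels in ES 2iL. mmu-miR-449a-5p was at 52.5 RPM (423 reads), 2.17 RPM (6 reads), 69.4 RPM (299 reads) and 27.2 RPM (16 reads). mmu-miR-449c-5p was at 60.6 RPM (488 reads), 3.61 RPM (10 reads), 89.1 RPM (384 reads) and 117 RPM (69 reads). Both were higher in ELA than in ES cells within each medium, although ELA 2iL was below ES serum for mmu-miR-449a-5p. Together they were 19.6-fold lower in ES 2iL than in ES serum (12.0 to 34.4) and 25.0-fold higher in ELA 2iL than in ES 2iL (14.6 to 45.8), where the 4 arms of miR-34b and miR-34c gave 3.20-fold and 5.59-fold (4.91 to 6.37). The stage difference was 2.62 ± 1.04 for mmu-miR-449c-5p (adjusted p = 0.234 with limma, 0.104 with edgeR and 0.0111 with DESeq2) and 1.78 ± 0.77 for mmu-miR-449a-5p (0.257, 0.192 and 0.0997). The medium difference of mmu-miR-449a-5p was −2.70 ± 0.77 (adjusted p = 0.127 with limma, 0.0167 with edgeR and 0.000835 with DESeq2), and that of mmu-miR-449c-5p was −1.67 ± 1.04 (0.338, 0.188 and 0.0705). mmu-miR-449b was listed at 0 in all 4 libraries.

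**Figure D5:**
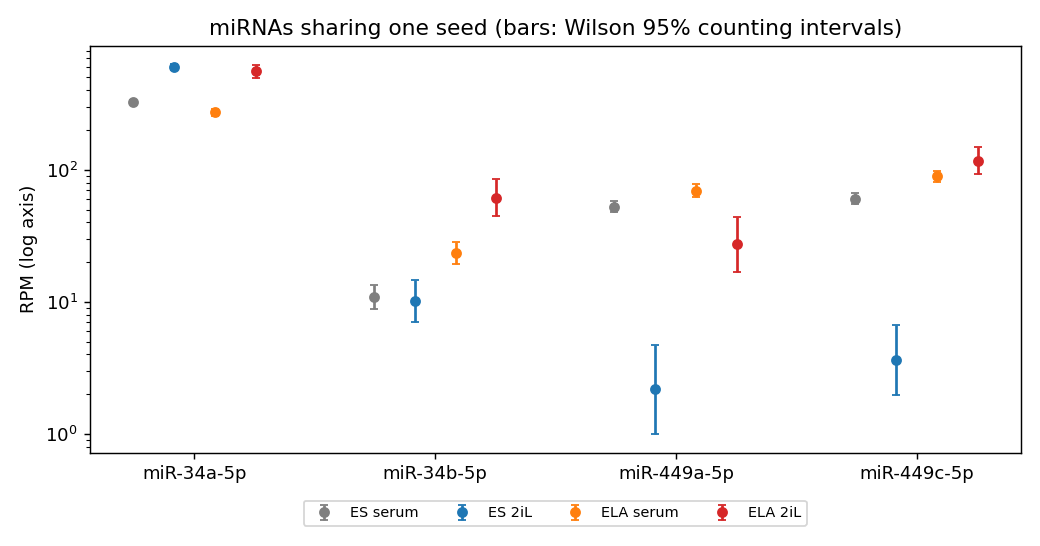
Levels in RPM on a log axis of the 4 miRNAs printed above with the seed GGCAGUG, 1 point per library, with Wilson 95% counting intervals. Both miR-449 miRNAs lie below 4 RPM in ES 2iL, where mmu-miR-34a-5p is at 598 RPM, with an interval that overlaps that of ELA 2iL.

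Among the 598 other miRNAs tested, the profiles most like that of mmu-miR-34c-5p over the 4 libraries belonged to mmu-miR-34b-3p, mmu-miR-92a-2-5p, mmu-miR-18b-5p, mmu-miR-34c-3p and mmu-miR-450a-1-3p. Likeness was the Euclidean distance between log2(RPM + 1) profiles centred on their own means, and these distances were 0.23, 0.31, 0.34, 0.44 and 0.46. mmu-miR-18b-5p, the most abundant of the 5, was at 672, 193, 1422 and 1199 RPM. mmu-miR-92a-2-5p was at 15.6, 3.98, 19.96 and 25.5 RPM, and mmu-miR-450a-1-3p at 2.61, 0, 6.73 and 6.81 RPM, with 4 reads in ELA 2iL. mmu-miR-34b-5p came 88th, mmu-miR-34a-3p 205th and mmu-miR-34a-5p 302nd in this order. A likeness over 4 points is a description only.

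Other miRNAs tied to p53 were compared through lists of them. A list of miRNAs that p53 is known to raise (miR-192, miR-194, miR-215, miR-107 and miR-145a) had 0 of 5 members higher in ELA by at least 1 (11.9% of the miRNAs tested) and 3 lower (21.7%), with a median of −1.03. Under the other 3 scalings 2 were lower. In 2iL 3 of the 5 were higher by at least 1 (24.5% of those tested) and 0 lower (15.7%), with a median of 1.36, and 1 to 3 were higher under the other scalings, where 14.4 to 21.9% of those tested were. For stage the share lower under those scalings was 15.9 to 20.7%. mmu-miR-192-5p, which like miR-34a can slow the cell cycle, was at 1700, 2945, 773 and 1011 RPM. Its stage difference was −1.34, beside 1.58 for mmu-miR-34c-5p. mmu-miR-145a-5p was at 11.9, 60.4, 4.18 and 35.8 RPM, with a medium difference of 2.54 (adjusted p = 0.0910 with limma, 0.0283 with edgeR and 0.0102 with DESeq2).

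For the miRNAs whose processing p53 is known to promote (miR-16-5p, which the Mir16-1 and Mir16-2 hairpins share, miR-16-1-3p, miR-143-3p and miR-145a-3p), 0 of 4 were higher (11.9% of the miRNAs tested) and 1 was lower (21.7%) by at least 1 in ELA, mmu-miR-143-3p with −1.21, and 0 were lower with DESeq2 size factors (15.9%). In 2iL 2 were higher (24.5%) and 0 lower (15.7%), and with TMM 1 was higher (14.4%). With edgeR or DESeq2 1 was lower, as were 23.5% or 23.2% of the miRNAs tested. mmu-miR-145a-3p was at 28.7, 10.5, 8.12 and 10.2 RPM. Its medium difference was −0.54, opposite in sign to the 2.54 of mmu-miR-145a-5p from the same hairpin. Of 6 miRNAs of the miR-17-92 cluster, which p53 is known to repress, 2 were higher by at least 1 in ELA (11.9% of the miRNAs tested) and 0 lower (21.7%), with a median of 0.92, and 3 or 4 were higher under the other scalings, where 15.2 to 16.2% of the miRNAs tested were. These 2 were mmu-miR-19a-3p (1.71) and mmu-miR-19b-3p (1.39), which DESeq2 called (adjusted p = 0.0172 and 0.0286) and edgeR did not (adjusted p = 0.0502 and 0.0773). In 2iL 2 of the 6 were likewise higher by at least 1 (24.5% of those tested) and 0 lower, with a median of 0.81, beside 0.32 for all miRNAs tested. One of them was mmu-miR-19a-3p, with a medium difference of 2.34 (adjusted p = 0.0344 with edgeR and 0.00922 with DESeq2). Of 3 miRNAs known to target the p53 mRNA, mmu-miR-125a-5p, mmu-miR-125b-5p and mmu-miR-504-5p, 0 were higher and 1 was lower by at least 1 in ELA (mmu-miR-125a-5p, −1.06), against 11.9% and 21.7% of the miRNAs tested. Under each of the other 3 scalings 0 were lower, against 15.9 to 20.7% of those tested. In 2iL 1 was higher and 1 lower (24.5% and 15.7%), as under those scalings (14.4 to 21.9% and 19.0 to 22.2%). limma called none of the miRNAs of these 4 lists, as it called 0.0% of all miRNAs tested for either contrast.

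Of 5 markers of other cell types, the summed level was 301 to 437 RPM in the 4 libraries, with 437 and 301 RPM in the ES libraries and 339 and 337 RPM in the ELA libraries. mmu-miR-122-5p of liver was at 0 throughout. One of the markers was, like miR-34b and miR-34c, higher in both ELA libraries and lowest in ES 2iL. This was mmu-miR-133a-3p, a muscle miRNA, at 10.4 RPM (84 reads), 0 RPM, 46.6 RPM (201 reads) and 71.5 RPM (42 reads), and its profile came 343rd of 598 in likeness to that of mmu-miR-34c-5p. The neural markers did not have this pattern, with mmu-miR-9-5p at 356, 156, 246 and 218 RPM and mmu-miR-124-3p at 68.9, 142, 45.3 and 44.3 RPM, and the erythroid mmu-miR-451a was at 1.62 to 3.41 RPM. The part of other cell types in the level of miR-34b and miR-34c was not tested.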

How the data were processed

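Small RNA-seq was performed on 4 libraries, 1 per group. Demultiplexing with CASAVA 1.8, adaptor trimming with Trimmomatic, mapping to mm9 with Bowtie and counting over miRBase miRNAs with featureCounts were done by the authors, who deposited RPM values. How reads that map to several places were counted, or reads shared by near-identical arms, is not given in the sources used here, and RPM is a share of miRNA reads rather than an amount per cell. The number of sample columns left unused was 0. Every value was a whole multiple of 1 read within 0.01 read (100% in each library). The recovered totals were 8056984 and 2767016 reads for ES cells in serum and 2iL, and 4309257 and 587363 reads for the ELA derived from them.

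limma 3.58.1 (R 4.3.3) was fitted additively for stage and medium to log2(RPM + 1) of the 599 miRNAs that reached 10 reads in 2 or more libraries, two-sided, with Benjamini-Hochberg adjustment over all 599 and a threshold of 0.05. The pseudocount of 1 RPM understates the change of low miRNAs. edgeR 4.0.16 (quasi-likelihood) and DESeq2 1.42.0 on the recovered reads, other scalings, pseudocounts of 0.5 and 5 RPM, no filter, and values within 1 medium or stage were the alternatives. The scripts were tested on simulated data. Genomic positions were read from the NCBIM37 annotation, which is mm9, and sequences from RefSeq. miRNAs named were the members, those sharing a 5p seed, fixed lists linked to p53, pluripotency and other cell types (1 listed name was not in the table), and the 5 profiles nearest to the member with most reads. Members and lists were chosen with earlier results of these data known.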

Additional observations from a re-analysis of the deposited data

Results flagged for a closer look

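The following miRNAs, among 36 looked at, moved in opposite directions under the same contrast in the 2 media or at the 2 stages. Each change compares 1 library with 1 library, the difference itself was not tested, and for 8 of the 17 pairs of changes both counting intervals excluded 0. Values are on the log2(RPM + 1) scale.

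For the 2iL minus serum change, 4 members had opposite signs at the 2 stages, and in each the ELA change was above the ES change. The gap was 2.17 for mmu-miR-34b-3p (−2.01 in ES, 0.16 in ELA), 2.03 for mmu-miR-34c-3p (−1.46 and 0.58), 1.73 for mmu-miR-34c-5p (−1.72 and 0.012) and 1.44 for mmu-miR-34b-5p (−0.085 and 1.35). In none of the 4 did both intervals exclude 0. The signs hold under RPM, and the ELA change turned below 0 for mmu-miR-34c-5p under all 3 other scalings and for mmu-miR-34b-3p with TMM and DESeq2 size factors, so that those signs were then not opposite. Among the other miRNAs the gap was 4.13 for mmu-miR-449c-5p, 4.12 for mmu-miR-133a-3p, 2.90 for mmu-miR-125b-5p, 1.67 for mmu-miR-145a-3p, 0.76 for mmu-miR-92a-3p, −0.43 for mmu-miR-215-5p and −1.06 for mmu-miR-124-3p.

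For the ELA minus ES change, the change in 2iL minus that in serum was 2.90 for mmu-miR-125b-5p, 1.01 for mmu-miR-9-5p, 0.76 for mmu-miR-92a-3p, −0.86 for mmu-miR-16-1-3p, −1.06 for mmu-miR-16-5p and −1.19 for mmu-miR-107-3p. Under RPM none of the 6 members had opposite signs in the 2 media, and under the other 3 scalings mmu-miR-34a-5p was lower in ELA within serum and higher within 2iL.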

How the results depend on the processing

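limma called 0 members for stage, and the count was 1 with no filter on low values (mmu-miR-34b-5p, adjusted p = 0.0296) and 2 with DESeq2 on recovered reads. Over the 599 miRNAs tested, limma called 0 for stage under RPM and 45 with TMM scaling. It called 27 when the 5 most abundant miRNAs were left out of the totals and 9 with a pseudocount of 5 RPM. edgeR called 39 (6.51%) and DESeq2 50 (8.35%). For medium these counts were 0, 73, 42, 38, 64 and 80. With no filter the fit took in every miRNA with a read instead of the 599, and the calls were 99 for stage and 130 for medium. The stage difference of mmu-miR-34c-5p was 1.56 to 1.79 over the 8 fits (adjusted p 0.0298 to 0.255) that of mmu-miR-34b-5p 1.49 to 2.04 (0.0296 to 0.209), that of mmu-miR-34b-3p 1.04 to 1.91 (0.0581 to 0.274) and that of mmu-miR-34c-3p 0.93 to 2.07 (0.0542 to 0.255). The stage difference of mmu-miR-34a-5p, −0.19, turned to 0.026 with DESeq2 size factors and 0.025 with DESeq2, none of them called. The medium difference turned to −0.085 within ES for mmu-miR-34b-5p, and within ELA to 0.16 for mmu-miR-34b-3p, 0.012 for mmu-miR-34c-5p and 0.58 for mmu-miR-34c-3p. Of those reduced totals the 6 arms made up 0.183% and 0.140% of reads in ES cells (serum, then 2iL) and 0.241% and 0.309% in ELA, against 0.0843%, 0.0778%, 0.111% and 0.145% of all reads. With Pearson's r as the measure, 3 of the 5 nearest profiles were again among the nearest 5. The median miRNA was shifted by −0.22 for stage and 0.32 for medium under RPM, and by −0.034 and −0.038 under DESeq2 size factors. The medium term of the fit ties each ELA library to the medium of its ES cells. No paired analysis was possible beyond that because each group has 1 library and the labels give no replicate numbers. ELA 2iL was the shallowest library, where mmu-miR-34c-3p had 7 reads and mmu-miR-34b-3p 10. These 2 arms had fewer reads still in the deeper ES 2iL library, 3 and 5.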
